A study of Mus musculus with 8 samples.

Results

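The let-7 family is a group of microRNAs (miRNAs) with one shared seed, the stretch of bases near the 5′ end that pairs with target mRNAs. The mouse nCounter panel used here held 9 rows named as family members among 566 mouse miRNA rows, and all 9 are described, chosen by name. The rows are mmu-let-7a, mmu-let-7b, mmu-let-7c, mmu-let-7d, mmu-let-7e, mmu-let-7f, mmu-let-7g, mmu-let-7i and mmu-miR-98, written below without the species prefix. They were measured in Kupffer cells (KCs), the macrophages that reside in liver sinusoids, and in circulating monocytes (MNCs), taken from blood, from Balb/C mice. The labels give 4 KC and 4 MNC samples, each a pool of cells from 5 mice, and 100 ng of total RNA entered each reaction. Per the study's methods, both populations were taken with magnetic beads against F4/80, KCs after collagenase digestion of perfused livers, and smaller pools were allowed. The labels give no age, and whether pools with the same number share mice is not stated, so p-values cover the spread between these pools. In such pools, fewer cells of a type and less RNA per cell cannot be told apart.

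In the assay each miRNA receives a sequence tag by ligation, a barcoded fluorescent probe is hybridised to it, and the barcodes are counted. The deposited signal is this count times a factor of 1.52 to 1.76 in KCs and of 0.589 to 1.06 in MNCs, set by 4 mRNAs on the panel. The factor raised KC values relative to MNC values for every miRNA, though not above them in every row. The median difference over all 566 rows was 0.94 on the log2(signal + 1) scale. The family is therefore described both as barcode counts, with the factor undone, and as deposited signal. Counts over the mouse miRNAs summed to 8669 to 10194 in KCs and to 5374 to 10568 in MNCs, with the lowest total in MNC 1. A row counted as above background in those samples where it exceeded the highest of the 8 negative controls, which was 17 to 35 counts.

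let-7 miRNAs are among the most conserved in animals. They are known for holding back growth-promoting and progenitor genes such as Lin28, Hmga2 and Ras family members, and as a rule they accumulate as cells differentiate. Their precursors lie singly and in clusters in the genome, and LIN28 proteins, which block the processing of let-7 precursors, can keep mature let-7 low while the primary transcripts are made. In macrophages, let-7 members are known as regulators of cytokine and Toll-like receptor transcripts.

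All 9 members were matched to a mature sequence of 22 bases in RefSeq (build GRCm38.p6). They are shown here because the comparison of members rests on how alike they are. Sequences run 5′ to 3′ and capitals mark the seed, bases 2 to 8, which was GAGGUAG in every member.
let-7a: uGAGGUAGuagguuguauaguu
let-7b: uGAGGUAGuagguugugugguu
let-7c: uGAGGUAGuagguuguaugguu
let-7d: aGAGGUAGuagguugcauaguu
let-7e: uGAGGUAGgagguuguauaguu
let-7f: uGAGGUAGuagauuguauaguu
let-7g: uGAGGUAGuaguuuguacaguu
let-7i: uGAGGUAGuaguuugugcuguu
miR-98: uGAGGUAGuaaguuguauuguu

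Outside the seed, members differed from let-7a at 1 to 4 positions, counted from 1 at the 5′ end with the base of let-7a first. let-7c carried A19G, let-7e U9G and let-7f G12A as their only difference. let-7b carried A17G and A19G, so that let-7b and let-7c differed at 1 base (G17A, let-7b first). let-7d carried U1A and U16C and was the member whose first base was not U. let-7g carried G12U and U18C, miR-98 carried G11A and A19U, and let-7i carried G12U, A17G, U18C and A19U. The most distant pair, let-7d and let-7i, differed at 6 bases. How far one probe counts a neighbouring member was not tested, so values of members 1 base apart may share signal.

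As a whole, the family took a larger share of the miRNA counts in KCs than in monocytes. It held 529, 661, 841 and 580 counts in KC 1 to KC 4 and 102, 226, 243 and 312 counts in MNC 1 to MNC 4. As a share of all mouse miRNA counts this was 5.64, 6.84, 9.70 and 5.69% in KCs and 1.90, 2.14, 2.79 and 3.12% in MNCs. The groups did not overlap, with means of 6.97% ± 1.90 (SD, n = 4) and 2.49% ± 0.565 (SD, n = 4), for rows that make up 1.59% of the mouse miRNA rows. These shares do not depend on the mRNA factor. Much of the total is at background level, which also bears on scaling to the same total. The median mouse row had 10.4 counts in KCs and 10.75 in MNCs (means, n = 4 each). The mean negative control was 13.0 counts in KCs and 13.25 in MNCs. The 95% Wilson intervals, which cover counting error only, reached down to 5.19% in the lowest KC sample and up to 3.48% in the highest MNC sample. KC 3 stood above the other KC samples, and without it the difference between the group means was 3.57 percentage points against 4.48 with it. The difference was 8.72 points with the mean negative control subtracted and 9.73 over the 55 rows above background in at least 4 samples.

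**Figure D1:**
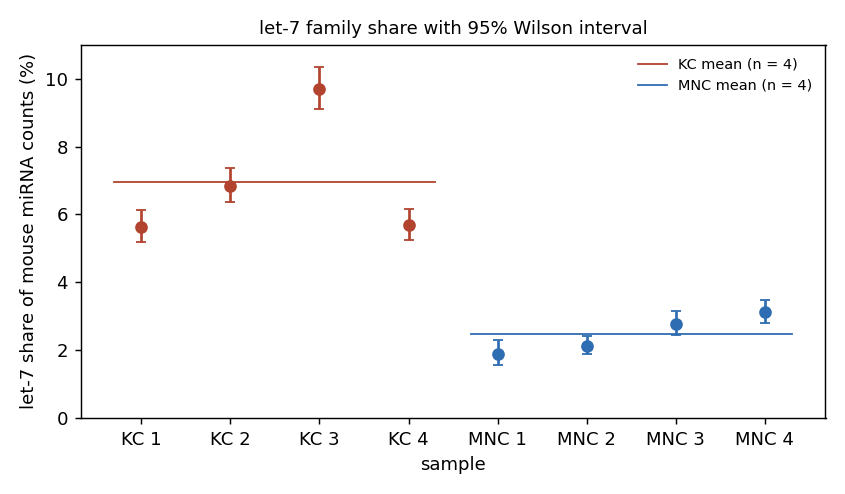
Share of all mouse miRNA counts held by the 9 let-7 members in each sample, in percent, with 95% Wilson intervals as bars and group means (n = 4) as lines. The KC samples lie between 5.64 and 9.70% and the MNC samples between 1.90 and 3.12%, with no overlap.

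let-7b, let-7c and let-7d held most of this difference, and were grouped here because they differed most. Together they held 428, 498, 711 and 426 of the family counts in KC 1 to KC 4 and 24, 110, 168 and 190 in MNC 1 to MNC 4. The other 6 members together held 101, 163, 130 and 154 counts in KCs and 78, 116, 75 and 122 in MNCs, and these ranges overlap. The share of let-7b, c and d within the family was 78.6% ± 5.09 in KCs and 50.6% ± 19.9 in MNCs (SD, n = 4 each). It was 73.4 to 84.5% in KCs and 23.5 to 69.1% in MNCs, so the groups did not overlap in counts. They did overlap once the mean negative control was subtracted, at 79.6 to 90.1% in KCs and 16.5 to 83.7% in MNCs. MNC 1 had the lowest of the MNC shares, and without it the MNC mean in counts was 59.6% ± 10.3 (n = 3).

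On the deposited scale 8 of the 9 members were higher in KCs at an adjusted p under 0.05 (limma over all 566 rows, Benjamini-Hochberg), beside 24.7% of all rows. Of the 566 rows, 362 were above background in no sample. Fitted to only the 55 rows above background in at least 4 samples, limma called 41 higher, among them all 6 members fitted. Most detected rows were thus called on this scale, as these members were. All 4 KC signals lay above all 4 MNC signals for each of the 9 members, as they did for 36.9% of all rows. That scale moved most rows toward KCs, so each member is also given on scales without the factor. In barcode counts, all 4 KC samples lay above all 4 MNC samples for let-7b, c, d and e, beside 2.3% of all rows. After every sample was scaled to the same total, limma called let-7b, c and d higher, beside 1.41% of all rows. On counts with no scaling limma called none of the 9 at an adjusted p under 0.05, beside 0.177% of all rows, and 4 members had an unadjusted p under 0.05, as did 29 of all 566 rows. After quantile normalization it likewise called no member, beside 0.177% of all rows, and 4 members had an unadjusted p under 0.05, as did 43 of all rows. The log2 differences on counts were 2.64 for let-7b, 1.78 for let-7c and 2.73 for let-7d, and after quantile normalization they were 2.07, 0.91 and 2.48. The median difference of the 9 members was 1.70 on the deposited log2 scale, where that of all rows was 0.94, and 0.53 after scaling to the same total, where that of all rows was -0.14. The study's own list of miRNAs higher in Kupffer cells, drawn from these samples, holds let-7b, c, d, e and g, and the calls here are not independent evidence for it. By RT-PCR the study found let-7c higher in KCs too, whereas for let-7d it states that RT-PCR and the panel differed.

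Other scalings kept let-7b and let-7d apart from most rows. Scaled to the ligation controls, limma called both higher, beside 0.53% of all rows higher and 45.6% lower. Scaled to the positive controls it called the same pair, beside 0.707%, and scaled to the 100 highest miRNAs it called let-7b, c and d, beside 0.883%. Subtracting the mean negative control gave calls for all members but let-7f, beside 58.7% of all rows, and let-7a and miR-98 then carried no more than the floor. In detection, let-7b, c, d, e and g were above background in all 4 KC samples, beside 4.42% of all rows, and let-7g in all 4 MNC samples, beside 2.3%.

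**Figure D2:**
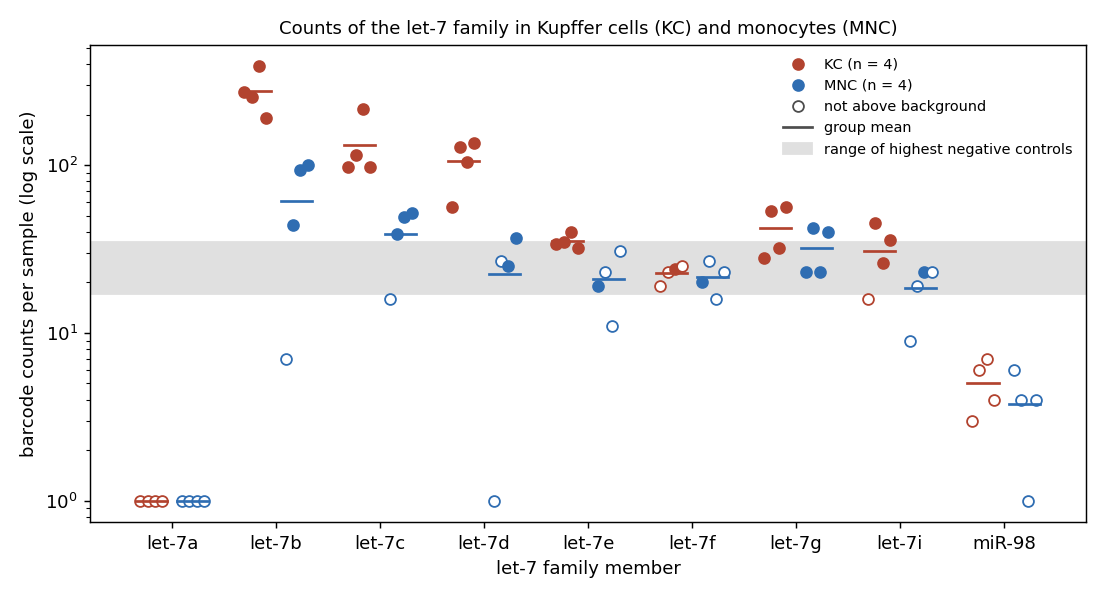
Barcode counts of each let-7 member in the 4 KC and 4 MNC samples on a log scale, with group means as lines, open circles for samples in which the row was not above background, and a grey band for the range of the highest negative control (17 to 35 counts). let-7b, c, d and e do not overlap between groups, let-7f, g and i do, and let-7a lies at 1 count, the lowest value drawn, in every sample.

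let-7b was the most abundant member in every KC sample. Its counts were 274, 254, 389 and 192 in KC 1 to KC 4 and 7, 44, 94 and 101 in MNC 1 to MNC 4. Every KC sample and 3 MNC samples were above background. The deposited signals were 418, 447, 643 and 298 in KCs and 4.13, 32.1, 99.5 and 80.7 in MNCs. No sample of one group reached the other on either scale, and MNC 1 was far below the other MNC samples. The log2 signal difference was 3.66 (SE 0.66, limma adjusted p = 6.16e-04). Leaving out MNC 1 lowered it to 2.75 (limma adjusted p = 3.62e-04). Scaled to the same total, let-7b was higher in KCs by 2.49 on the log2 scale (SE 0.46, limma adjusted p = 8.25e-04), and by 1.87 without MNC 1 (limma adjusted p = 0.0151). Ranked by count among the 566 rows, it stood at places 3 to 5 in KCs and at places 6 to 259 in MNCs.

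let-7c, 1 base from let-7b, was the second member of the family by mean in KCs. Its counts were 98, 115, 217 and 98 in KCs and 16, 39, 49 and 52 in MNCs, with every KC sample and 3 MNC samples above background. The signals were 149, 202, 359 and 152 in KCs and 9.43, 28.5, 51.9 and 41.5 in MNCs. KC 3 was the highest KC sample and MNC 1 the lowest MNC sample, as for let-7b. The log2 signal difference was 2.81 (SE 0.50, limma adjusted p = 6.16e-04), and scaled to the same total it was 1.61 (SE 0.32, limma adjusted p = 0.00146). The ranks met at place 8, with 6 to 8 in KCs and 8 to 49 in MNCs.

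let-7d, whose precursor lies beside those of let-7a and let-7f, differed about as much as let-7b. Its counts were 56, 129, 105 and 136 in KCs and 1 (the floor), 27, 25 and 37 in MNCs, with every KC sample and 2 MNC samples above background. The signals were 85.4, 227, 174 and 211 in KCs and 1, 19.7, 26.5 and 29.6 in MNCs, where the 1 is the lowest value the table lists. KC 1 was lowest in its group and not KC 4, which was lowest for let-7b, and MNC 1 was again lowest among monocytes. The log2 signal difference was 3.59 (SE 0.60, limma adjusted p = 5.24e-04). Leaving out MNC 1 lowered it to 2.67 (limma adjusted p = 4.15e-05). Scaled to the same total it was 2.64 (SE 0.45, limma adjusted p = 2.92e-04), and 1.79 without MNC 1 (limma adjusted p = 0.00185). let-7b and let-7d were the members whose ranks did not overlap between groups, beside 2.65% of all rows ranked higher in every KC sample.

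let-7e sits in a cluster with miR-99b and miR-125a, a cluster known from blood stem cells. Its counts were even among KCs, at 34, 35, 40 and 32, and were 19, 23, 11 and 31 in MNCs. It was above background in all 4 KC samples but in 1 MNC sample, so its level among monocytes is mostly a bound. The groups did not overlap, with the highest MNC sample 1 count below the lowest KC sample. The log2 signal difference was 1.83 (SE 0.40, limma adjusted p = 0.00513), and scaled to the same total it was 0.64 (SE 0.27, limma adjusted p = 0.431).

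let-7g was the member that monocytes held above background in all 4 samples. Its counts were 28, 53, 32 and 56 in KCs and 23, 42, 23 and 40 in MNCs, and these overlap. The signals were 42.7, 93.2, 52.9 and 86.9 in KCs and 13.6, 30.7, 24.4 and 32.0 in MNCs. The log2 signal difference was 1.42 (SE 0.42, limma adjusted p = 0.0301), 0.48 above the median of all rows. Scaled to the same total the difference was 0.22 (SE 0.26, limma adjusted p = 0.840).

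let-7i, which has no cluster partner within 50000 bases, had counts of 16, 45, 26 and 36 in KCs and 9, 19, 23 and 23 in MNCs. It was above background in 3 KC samples and 1 MNC sample, and the counts overlap because KC 1 was low. The log2 signal difference was 1.70 (SE 0.46, limma adjusted p = 0.0247), and scaled to the same total it was 0.53 (SE 0.28, limma adjusted p = 0.637).

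let-7f had nearly equal counts in both groups, with 19, 23, 24 and 25 in KCs and 20, 27, 16 and 23 in MNCs. It was above background in 1 sample of each group, at the level of the negative controls in the rest. Its log2 signal difference of 1.11 (SE 0.39, limma adjusted p = 0.0451) was 0.17 above the median of all rows, and scaled to the same total it turned to -0.071 (SE 0.26, limma adjusted p = 0.963).

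The remaining members, let-7a and miR-98, did not exceed the negative controls anywhere. let-7a, a form that is abundant in many tissues, was at 1 count or listed at the floor in all 8 samples, as 1 of 4 such rows among the 566. let-7a therefore has no measured level in either cell type, and its log2 signal difference of 0.38 (SE 0.22, limma adjusted p = 0.153) comes from the factor and the floor alone. miR-98 had 3, 6, 7 and 4 counts in KCs and 6, 4, 1 and 4 in MNCs. Its log2 signal difference of 1.31 (SE 0.44, limma adjusted p = 0.0396) passed the test with both groups below background, so it is not a difference between measured levels.

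**Figure D3:**
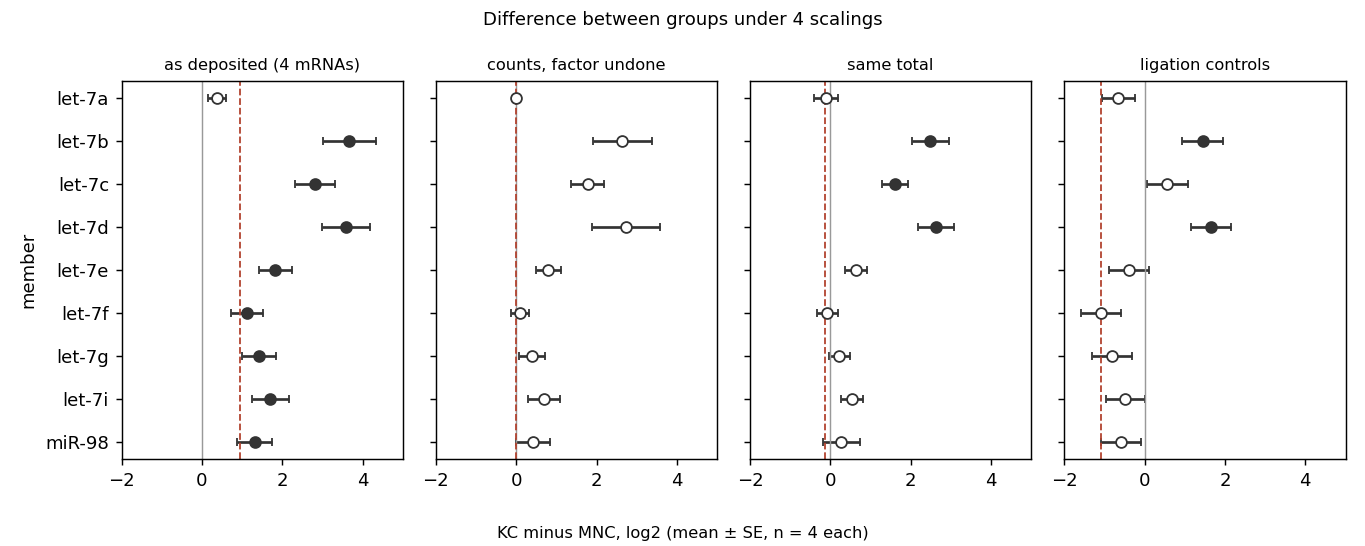
KC minus MNC log2 difference of each member with its SE (n = 4 per group) under 4 scalings, filled where the limma adjusted p was under 0.05; the dashed line marks the median of all 566 rows. let-7b, c and d lie right of the dashed line by more than their SE in every panel, whereas let-7f lies within its SE of that line in every panel.

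The calls for let-7b, c, d and e held when any 1 sample was left out on the deposited scale, with limma adjusted p under 0.05 each time. Those for let-7f, g, i and miR-98 did not. Without KC 2, limma called 4 members and 26 of the 566 rows, and let-7g (adjusted p = 0.0995), let-7i (0.0894), let-7f (0.121) and miR-98 (0.101) missed the threshold. Without KC 4, limma called 5 members and let-7g (adjusted p = 0.0918) was lost with let-7f and miR-98. With the replicate number as a block, 8 members were called, beside 35% of all rows. Under scaling to the same total, the 3 calls of let-7b, c and d held with any 1 sample left out, an alternative added after the data were seen. An exact two-sided permutation test cannot go below p = 0.0286 over the 70 splits of 8 samples, and after adjustment none of the 566 rows passed it, the 9 members included.

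Within a sample, members were ordered by count. let-7b was highest in 4 of 4 KC samples and 3 of 4 MNC samples, and in MNC 1 let-7g led with 23 counts. let-7b exceeded let-7c in 4 KC and 3 MNC samples. let-7c exceeded let-7d in 2 KC samples and in all 4 MNC samples, so these neighbours had no fixed order in KCs. let-7d exceeded let-7g in all 4 KC samples and in 1 MNC sample. let-7g exceeded let-7f in all 8 samples. The members are of equal length, but probe efficiency may differ between them and was not tested, so the order is that of counts.

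As shares of the family, let-7b made up 42.4% ± 8.27 in KCs and 24.3% ± 14.1 in MNCs (SD, n = 4 each), and these ranges overlap. let-7c held nearly the same part in both, 19.7% ± 4.15 in KCs and 17.4% ± 1.93 in MNCs. let-7d made up 16.5% ± 6.01 in KCs and 8.77% ± 5.25 in MNCs. let-7f took 3.56% ± 0.597 in KCs and 11.4% ± 5.97 in MNCs, and let-7i took 4.78% ± 2.01 and 8.52% ± 0.879, both without overlap. let-7f was above background in 1 sample of each group, and let-7i in 3 KC samples and 1 MNC sample. Shares of let-7a, at 1 count or the floor everywhere, did not overlap either (0.158% ± 0.0302 and 0.539% ± 0.299). Equal counts can thus give shares apart, and how often other rows do so was not tested. let-7g took 6.69% ± 2.64 in KCs and 15.9% ± 5.84 in MNCs. A share can grow because other members shrink, and the counts of let-7f and let-7g above overlap between groups. With the mean negative control of each sample subtracted, the let-7i share of KCs minus MNCs went from -3.73 to -0.067 percentage points, and with the highest negative control subtracted it turned to 1.13. With the highest negative control subtracted, the difference in share also went from 18.0 to 6.54 points for let-7b, from 7.74 to 16.3 for let-7d and from -9.16 to -20.2 for let-7g. Without MNC 1, the difference in share of counts was 5.14 points for let-7d and -5.08 for let-7f, against -7.82 with it.

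**Figure D4:**
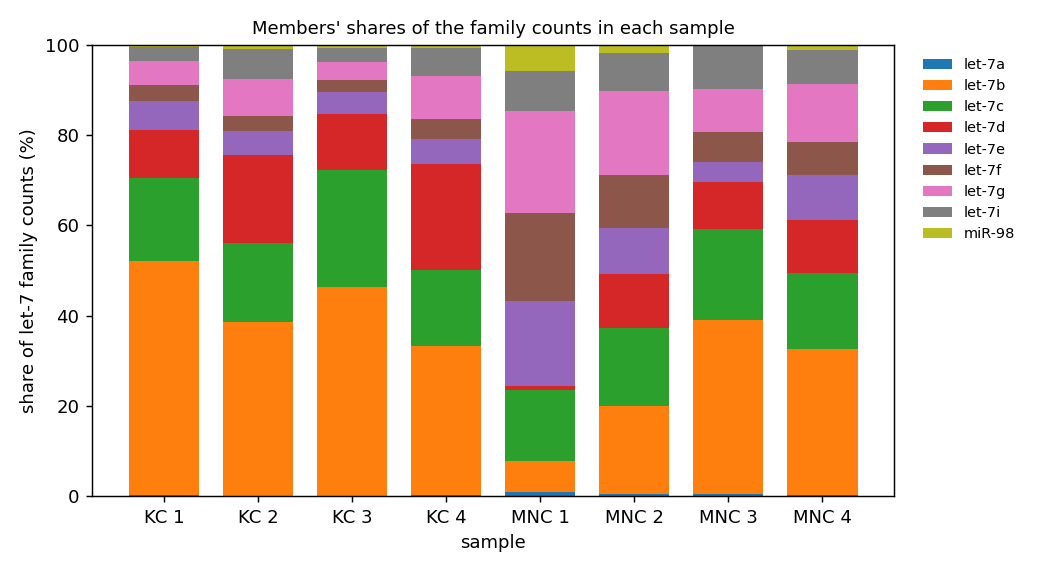
Share of the family counts held by each let-7 member in each sample, in percent, stacked to 100. let-7b, c and d together fill 73.4 to 84.5% of the bars in KCs and 23.5 to 69.1% in MNCs.

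Ratios between members within a sample carry no scaling. They were compared for the 6 members above background in at least 4 samples (let-7b, c, d, e, g and i), which form 15 pairs. let-7e and let-7i passed this filter mostly through KCs, each being above background in 1 MNC sample. The MNC side of their ratios is therefore mostly at the level of the negative controls. This holds for every pair without overlap below except let-7d to let-7g. In 4 pairs the log2 ratio did not overlap between groups, beside 16.9% of 1176 pairs of other rows chosen in the same way. The ratio of let-7d to let-7g was 1.32 ± 0.29 in KCs and -1.29 ± 2.18 in MNCs on the log2 scale (SD, n = 4 each). let-7d to let-7i was 1.81 ± 0.21 in KCs and -0.46 ± 1.82 in MNCs. Both MNC means include MNC 1, where let-7d was listed at the floor and taken as 1 count, so they are not exact. Without MNC 1 they were -0.21 ± 0.39 and 0.44 ± 0.29 (n = 3), and the second turned positive. let-7b to let-7i was 3.23 ± 0.90 and 1.25 ± 1.15, and let-7c to let-7i was 2.12 ± 0.85 and 1.03 ± 0.15. With the mean negative control subtracted, let-7d to let-7g was the 1 pair left without overlap, beside 15.9% of the other pairs.

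Within a group, the samples kept no single order over the members. By count, KC 4 was lowest for let-7b, at 192, and highest for let-7d, at 136, and for let-7g, at 56. KC 3 was highest for let-7b, c and e. Among monocytes, MNC 1 was lowest for let-7b, c, d and i, and MNC 3 was lowest for let-7e, f and miR-98. MNC 1 also had the lowest total and the lowest mean negative control, at 9.25 counts, and their part in its low let-7 values was not tested.

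The precursors that could yield these members lie in few places of the genome (RefSeq, GRCm38.p6), and 5 of their hairpins are shown because they let neighbours be compared. Capitals mark the mature arm measured by the panel.
Mirlet7c-2: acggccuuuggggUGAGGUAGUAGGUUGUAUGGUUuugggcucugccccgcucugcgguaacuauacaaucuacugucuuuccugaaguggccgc
Mirlet7b: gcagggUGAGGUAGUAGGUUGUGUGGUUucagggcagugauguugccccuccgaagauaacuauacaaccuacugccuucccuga
Mirlet7a-1: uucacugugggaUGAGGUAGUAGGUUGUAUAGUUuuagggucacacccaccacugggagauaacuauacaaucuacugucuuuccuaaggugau
Mirlet7f-1: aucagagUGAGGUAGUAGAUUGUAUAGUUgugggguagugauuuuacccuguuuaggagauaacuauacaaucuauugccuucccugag
Mirlet7d: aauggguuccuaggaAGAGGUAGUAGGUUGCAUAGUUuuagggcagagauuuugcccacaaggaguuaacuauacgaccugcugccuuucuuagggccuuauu

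Mirlet7c-2 (chr15:85706603-85706697, plus strand) and Mirlet7b (chr15:85707319-85707403, plus strand) lie 621 bases apart within the span of the long noncoding RNA gene Lncppara. Their products were the leading members by mean count in KCs, although let-7c exceeded let-7d in only 2 of 4 KC samples. The log2 ratio of let-7b to let-7c was 1.11 ± 0.28 in KCs, from 0.84 to 1.48, and 0.22 ± 1.01 in MNCs, from -1.19 to 0.96 (SD, n = 4 each), so the groups overlap. Without MNC 1 the MNC mean was 0.69 ± 0.45 (n = 3). let-7c can also come from Mirlet7c-1 (chr16:77599657-77599750, plus strand), and the panel cannot tell these sources apart.

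Mirlet7a-1 (chr13:48538179-48538272), Mirlet7f-1 (chr13:48537829-48537917) and Mirlet7d (chr13:48536012-48536114) lie on the minus strand, with 261 bases between the hairpins of let-7a-1 and let-7f-1 and 1714 between those of let-7f-1 and let-7d. Their products had very unequal counts in KCs. let-7d reached 56 to 136 counts in KCs, let-7f 19 to 25, and let-7a at most 1. In MNC 1 to MNC 4, let-7d had 1 (the floor), 27, 25 and 37 counts and let-7f 20, 27, 16 and 23. let-7d differed between groups by 2.64 on the log2 scale after scaling to the same total, or 1.79 without MNC 1, whereas let-7f differed by -0.071 with an SE of 0.26. let-7f can also come from Mirlet7f-2 (chrX:151912346-151912428, plus strand), which lies 785 bases from Mir98 (chrX:151913214-151913321, plus strand) within the span of Huwe1, a ubiquitin ligase gene. Both products of that pair were at or below background in nearly all samples.

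The other precursors lie apart from each other. Mirlet7e (chr17:17830352-17830444, plus strand) is within the span of Spaca6 and 367 bases from Mir125a. Mirlet7g (chr9:106178840-106178927, plus strand) is within Wdr82, and Mirlet7a-2 (chr9:41536716-41536811, plus strand) is within the long noncoding RNA gene Mir100hg. Mirlet7i (chr10:122985640-122985724, minus strand) has no annotated gene over it in this table.

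miRNAs of other families encoded within 50000 bases of a let-7 hairpin, or near let-7e by their known cluster, gave 7 further rows on the panel, and limma called 1 of them on the deposited scale, beside 24.7% of all rows. That row was miR-99b, with 22 to 36 counts in KCs, 15 to 34 in MNCs and a log2 signal difference of 1.31 (SE 0.42, limma adjusted p = 0.0346). miR-125a-5p, from the same cluster as let-7e, differed by 1.18 (SE 0.45, limma adjusted p = 0.0532). miR-99a, the neighbour of Mirlet7c-1, differed by 0.98 (SE 0.44, limma adjusted p = 0.0734), close to the median of all rows. miR-100, miR-125b-5p, miR-135a and miR-125a-3p had differences of 0.52 to 0.84 and limma adjusted p of 0.110 to 0.344. None of the 7 was called on counts, beside 0.177% of all rows, or after scaling to the same total, beside 1.41%, and the same-total difference of miR-99a was -0.20, against 1.61 for let-7c.

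Outside the family, miR-1961 was the 1 row with the same seed among the 437 rows that had an arm in the RefSeq table. Its counts were 14 to 26 in KCs and 10 to 28 in MNCs, and its log2 signal difference was 0.95 (SE 0.44, limma adjusted p = 0.0800). It was above background in 1 sample, a KC sample.

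The rows whose pattern over the 8 samples was nearest to that of the summed family signal were sought by Euclidean distance. In this sum the most abundant members weigh most. The search covered the 49 other rows above background in at least 4 samples. miR-1944 (distance 1.16), miR-466g (1.26) and miR-1224 (1.38) were nearest, where the median of the candidates was 2.54. Within the family the distances ran from 0.559 for let-7c to 3.71 for let-7a. miR-1944 had 202 to 657 counts in KCs and 47 to 183 in MNCs. miR-466g had 32 to 67 and 16 to 24, and miR-1224 had 36 to 58 and 8 to 33.

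Of the 4 hepatocyte marker rows, miR-122 differed most between groups. miR-122, the defining miRNA of hepatocytes, had 161 to 685 counts in KCs and 2 to 7 in MNCs, and 3 of the 4 hepatocyte rows were called higher by limma on the deposited scale (adjusted p = 7.97e-12 for miR-122), where 24.7% of all rows were. Scaled to the same total, limma called miR-122 alone of them, and miR-192 (adjusted p = 0.781) and miR-194 (0.790) were lost. The summed signal of these rows was 335 to 1195 in KCs and 13.0 to 57.7 in MNCs. Hepatocytes also hold let-7, and the part of hepatocyte RNA in the let-7 values was not tested. None of the 3 red cell, 3 lymphocyte or 2 platelet rows was called on the deposited scale. Scaled to the same total, the red cell row miR-451 was lower in KCs, by -1.78 on the log2 scale (limma adjusted p = 0.00146). Their summed signals were 149 to 216 in KCs and 61.9 to 586 in MNCs for red cells, 101 to 281 and 16.3 to 545 for lymphocytes, and 7.76 to 16.5 and 5.84 to 10.4 for platelets. The red cell rows summed to 90 to 123 counts in KCs and 105 to 636 in MNCs. The lymphocyte row miR-150 ran from 15 to 463 counts among MNC samples, and its part in the spread of let-7 among monocytes was not tested.

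Of 5 rows typical of myeloid cells, none was called, with summed signals of 841 to 1035 in KCs and 384 to 644 in MNCs. In counts, with the factor undone, they summed to 509 to 604 in KCs and to 582 to 822 in MNCs, so the higher KC signal came with the factor. miR-142-5p, a miRNA of blood cells, was above background in all 8 samples. miR-223, abundant in myeloid cells, and miR-21 were above background in none, with miR-223 at 3 to 9 counts in KCs and 2 to 11 in MNCs. Rows known to be abundant in these cells thus had counts no higher than the negative controls, as let-7a did.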

How the data were processed

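miRNA levels of 4 KC and 4 MNC pools came from an nCounter Mouse miRNA V 1.5 panel. The deposited values are a normalized signal, made by the authors with nSolver Analysis Software 4.0 per the study's methods. The study isolated total RNA on columns, and whether these kept short RNA is not given in the sources used here. In each sample 100% of the values above the floor of 1 were whole multiples of 1 factor (within 0.02 of a count), and with it the geometric mean of 4 mRNAs (Actb, B2m, Gapdh, Rpl19) was 816.05 to 816.08 everywhere. The values thus carry a scaling to these mRNAs, although the study remarks that miRNAs were the references on this platform, a difference not settled here, and no background had been taken off. The table lists no value below 1, which holds for 49, 21 and 42 mouse miRNAs in MNC 1, MNC 2 and MNC 4. The geometric mean of the mRNAs was 464 to 535 counts in KCs and 771 to 1385 in MNCs, the source of the upward shift of KCs. Dividing by the factor gave counts.

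Differences are KC minus MNC on log2(signal + 1), a scale that shrinks differences of low rows. limma 3.58.1 (R 4.3.3; lmFit and trended eBayes) was fitted to all 566 mouse rows with a group term, and p-values were adjusted by Benjamini-Hochberg, with a threshold of 0.05. The fit was tested on simulated counts deeper than these, without the mRNA factor or the floor, so that test does not cover calls at low counts. Alternatives were counts, scaling to the same total, to ligation or positive controls or to the 100 highest miRNAs, quantile normalization, negative control subtraction, pseudocounts of 0.5 and 10, filters on low rows, exact permutation, the replicate number as a block and each sample left out. The named miRNAs are the 9 members, rows with their seed, rows of hairpins within 50000 bases, the 3 nearest rows and marker rows. The members and all lists were chosen with earlier results of these data known. Rows for mRNAs, controls and other species entered no test. Sequences came from RefSeq tables (GRCm38.p6).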

Additional observations from a re-analysis of the deposited data

Results flagged for a closer look

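The values of each member and its share of the family were searched for single samples far from their group of 4, in 40 sets, of which 3 stood out by Dixon's test (gap to the nearest sample over the range of the group). Chance alone flags about 5% of sets. The let-7a signal was 1.06 in MNC 3 and 1 in the other MNC samples, a difference made by the scaling, since let-7a was at 1 count or listed at the floor in each. The let-7f signal was 28.97 in KC 1, against 38.81 to 40.43 in the other KC samples. The let-7d share of the family counts was 0.980% in MNC 1, against 10.3 to 11.9% in the other MNC samples, where MNC 1 also had the lowest total count.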

How the results depend on the processing

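Of 9 members, 8 were called higher in KCs as deposited. The number was 0 on counts, 3 scaled to the same total, 2 to the ligation controls, 2 to the positive controls, 3 to the 100 highest miRNAs, 0 after quantile normalization (4 at an unadjusted p under 0.05, limma, as were 43 of all 566 rows) and 0 by the exact permutation test, as for all rows, where all 9 had the smallest p of 0.0286. Leaving out 1 sample gave 4 to 8, with 4 without KC 2 and 5 without KC 4. All rows called higher fell from 140 to 26 without KC 2, 33 without KC 1 and 41 without KC 4, and were 332 with the mean negative control subtracted. Scaled to the ligation controls, 258 rows were lower and 3 higher. let-7b and let-7d stayed higher with limma adjusted p under 0.05 under each of the 4 control or total scalings. Directions turned for let-7a scaled to the same total (-0.10), ligation controls (-0.65), positive controls (-0.086) and 100 highest miRNAs (-0.20). let-7f turned under the same settings (-0.071, -1.08, -0.062 and -0.24) and after quantile normalization (-0.021). Under the ligation controls let-7e (-0.39), let-7g (-0.81), let-7i (-0.48) and miR-98 (-0.58) turned too. The family share difference of 4.48 percentage points became 8.72 with the mean negative control subtracted and 9.73 over the 55 rows above background in at least 4 samples. Pairs of members without overlapping ratios fell from 4 to 1 with the mean negative control subtracted, and neighbouring or same-seed rows called from 1 to 0 on counts. The causes were not tested.

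Samples with the same number correlated in their deviations at 0.02, 0.08, 0.02 and 0.10, not all over 0.1, so the numbers were not taken to pair the samples, and whether they share mice is not known. With the replicate number as a block 8 members and 198 of all rows were called higher. The planned count models were not run, because the floor hides the lowest counts in 3 samples. With 1 to 56 counts for the members outside let-7b, c and d, depth limits what can be said of them.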
